A study of Schizosaccharomyces pombe with 6 samples.

Results

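The genes ctu1, ctu2, urm1, elp3 and elp4 encode parts of the machinery that modifies the first base of certain transfer RNA anticodons in the fission yeast Schizosaccharomyces pombe. They were taken by symbol, 5 of the 5160 entries of the deposited table, and all 5 passed the filter on low counts. RNA from whole cells, enriched for mRNA with oligo(dT), was sequenced in 6 libraries, 3 of the wild type (genotype label WT) and 3 of a mutant of dsk1, a gene for a kinase of SR splicing proteins. The series text calls the mutant a deletion and the genotype label calls it a knockdown, and no other allele, growth condition or time is given for either group. No read was assigned to ura4, a uracil synthesis gene used as a selection marker, in any wild-type library (0 counts), against 1957, 1392 and 1710 in mutant replicates 1 to 3, so the strains differed in more than dsk1, and a difference between them cannot be assigned to dsk1 alone. The 5 genes were chosen by their symbols with their counts and fold changes in the mutant against wild-type comparison already known, so their own values in it are described here without a test.

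Uridine at the wobble position, the first anticodon base, carries a side chain and a sulphur atom in the tRNAs that read AAA, GAA and CAA codons. Elongator, a complex of several subunits, starts a side chain at one carbon of the base, and a methyltransferase of Trm9 and Trm112 completes it. At another carbon oxygen is replaced by sulphur, which is passed from the cysteine desulphurase Nfs1 through Tum1 and the activating enzyme Uba4 (the uba42 gene here) to the ubiquitin-like carrier Urm1, and is placed on the tRNA by the Ctu1-Ctu2 complex. Ctu1 is the catalytic subunit, Ctu2 its partner, Elp3 the catalytic subunit of Elongator and Elp4 a subunit of its accessory Elp4-Elp5-Elp6 ring. Fission yeast cells that lack Ctu1 or Elongator are known to translate mRNAs rich in AAA codons poorly.

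The substrates themselves are not measured in mRNA libraries, so 1 gene of each kind is shown from the RefSeq assembly ASM294v3 to place the modified base, with the anticodon in capitals. Its first letter is the wobble base, T in the gene and U in the RNA.
tRNA-Lys gene, chrI:1733764-1733838, minus strand: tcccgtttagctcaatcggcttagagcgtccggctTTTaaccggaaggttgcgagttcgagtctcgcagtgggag
tRNA-Glu gene, chrI:718119-718190, minus strand: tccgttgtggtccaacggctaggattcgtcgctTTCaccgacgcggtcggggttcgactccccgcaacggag
tRNA-Gln gene, chrII:257908-257979, minus strand: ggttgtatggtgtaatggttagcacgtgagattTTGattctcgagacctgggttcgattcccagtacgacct
Each of the 3 anticodons begins with the uridine that Elongator and the Ctu1-Ctu2 complex modify. These coordinates belong to ASM294v3 only, since the build behind the deposited table is not given in the sources used here.

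The libraries held 15700362 to 19020530 counts. The dsk1 transcript fell from 101 ± 1.45 to 12.3 ± 1.26 CPM (TMM-scaled counts relative to library size, SD, n = 3), a log2 fold change of -3.03 (SE 0.13, edgeR quasi-likelihood test, adjusted p = 0.000134). Wild-type replicate 2 stood apart on the first principal component of log2 CPM (60.1% of the variance), at -37.9 against -9.54 and -2.29 for the other wild-type libraries and 13.1 to 19.6 for the mutant libraries. Counts ran towards longer genes in mutant replicates 1 and 2 (Spearman 0.297 and 0.284 over genes) and not in the other 4 libraries (-0.162 to -0.0752). Separate cultures are not mentioned for the replicates, and p-values therefore cover the spread among the samples as deposited, which may be technical.

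In the wild type, levels per length (FPKM, fragments per kilobase of gene scaled to library depth) gave the 3 thiolation genes the lower means of the 5, and the ranges of urm1 and ctu1 overlapped that of elp4 while that of ctu2 lay below it. The lowest of the 5 was ctu2 with 16.61, 10.10 and 12.13 FPKM. Next came urm1 with 13.95, 19.16 and 11.17 FPKM, ctu1 with 15.20, 26.28 and 12.62 FPKM, and elp4 with 20.59, 17.21 and 30.13 FPKM. The ranges of neighbours in that order overlapped from ctu2 to elp4. The highest was elp3 at 41.53, 35.66 and 39.73 FPKM, above every wild-type value of the other 4 genes. Against all tested genes, whose median was 39.8 FPKM, ctu2 stood at the 18.8th percentile, urm1 at the 21.7th, ctu1 at the 26.1st, elp4 at the 32.9th and elp3 at the 49.3rd. The genes that feed sulphur into the pathway spanned a wider range, with uba42 at 9.08 ± 1.51, tum1 at 68.7 ± 13.3 and nfs1, which also serves iron-sulphur clusters, at 110 ± 6.34 FPKM (SD, n = 3).

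**Figure D1:**
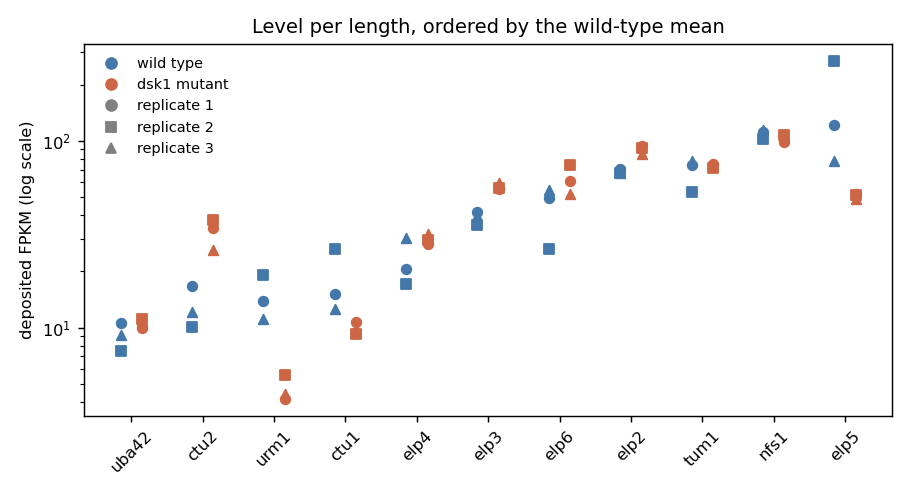
Deposited FPKM (log axis) of genes of tRNA thiolation and Elongator in each library, ordered by the wild-type mean, with colour for the group and shape for the replicate. The mutant values of ctu2, elp3 and elp2 lie above their wild-type values, and those of urm1, ctu1 and elp5 lie below theirs. Wild-type replicate 2 is the highest elp5 value at 268.63 FPKM.

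Of the sulphur carrier and the enzyme subunits it supplies, urm1 and ctu1 were lower and ctu2 was higher in every mutant library than in any wild-type library. The carrier gene urm1 (SPCC548.04) had 31.5, 49.5 and 24.8 CPM in the wild type and 9.19, 12.1 and 10.8 CPM in the mutant. Its groups did not overlap, and its log2 fold change was -1.72 (SE 0.27), a level 3.30-fold lower. Urm1 gives up its sulphur from a C-terminal pair of glycines, and the last 30 coding bases of the gene, spliced and on the plus strand of chromosome III in ASM294v3, end with their codons, in capitals, before the stop codon.
urm1 coding end: gtattcgtctcaacgttacacGGAGGTtaa
The catalytic subunit gene ctu1 (SPBC2G5.03) had 17.6, 34.8 and 14.4 CPM in the wild type and 12.2, 10.3 and 12.3 CPM in the mutant. Its groups were separate by a narrow margin, with wild-type replicate 2 far above the other wild-type libraries. The log2 fold change was -0.94 (SE 0.33), and -0.46 without that library. The partner subunit gene ctu2 (SPBC19C2.13c) had 22.3, 15.5 and 16.0 CPM in the wild type and 44.8, 48.9 and 37.6 CPM in the mutant. Its lowest mutant library was above its highest wild-type library, and its log2 fold change was 1.29 (SE 0.19). In RNA from whole cultures, less transcript in each cell and fewer cells with the transcript cannot be told apart.

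Within each library the balance between the genes of the 2 subunits lay apart by group. It had to, since ctu2 was higher and ctu1 lower in every mutant library. The same holds for ctu2 and urm1, so these ratios give sizes and are no further result. The ratio of ctu2 to ctu1 in FPKM was 1.09, 0.384 and 0.961 in the wild-type libraries and 3.18, 4.11 and 2.65 in the mutant libraries. The wild-type libraries were thus near or below parity and the mutant libraries above it. The ratio of ctu2 to urm1 was 1.19, 0.527 and 1.09 in the wild type and 8.22, 6.82 and 5.89 in the mutant.

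Of the Elongator subunits, elp3 was higher in each mutant library and elp4 overlapped between the groups. The catalytic subunit gene elp3 (SPAC29A4.20) had 82.3, 80.7 and 77.3 CPM in the wild type and 107, 107 and 127 CPM in the mutant. Its wild-type libraries lay close together, wild-type replicate 2 among them, and its log2 fold change was 0.50 (SE 0.12). The ring subunit gene elp4 (SPCC11E10.06c) had 28.9, 27.6 and 41.6 CPM in the wild type and 38.6, 39.8 and 48.5 CPM in the mutant. Wild-type replicate 3 lay inside the range of the mutant libraries. The log2 fold change of elp4 was 0.37 (SE 0.20), and 0.58 without that library. The ratio of elp3 to elp4 in FPKM was 1.80 ± 0.42 in the wild type and 1.91 ± 0.0599 in the mutant (SD, n = 3), a smaller difference than the spread between wild-type libraries.

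**Figure D2:**
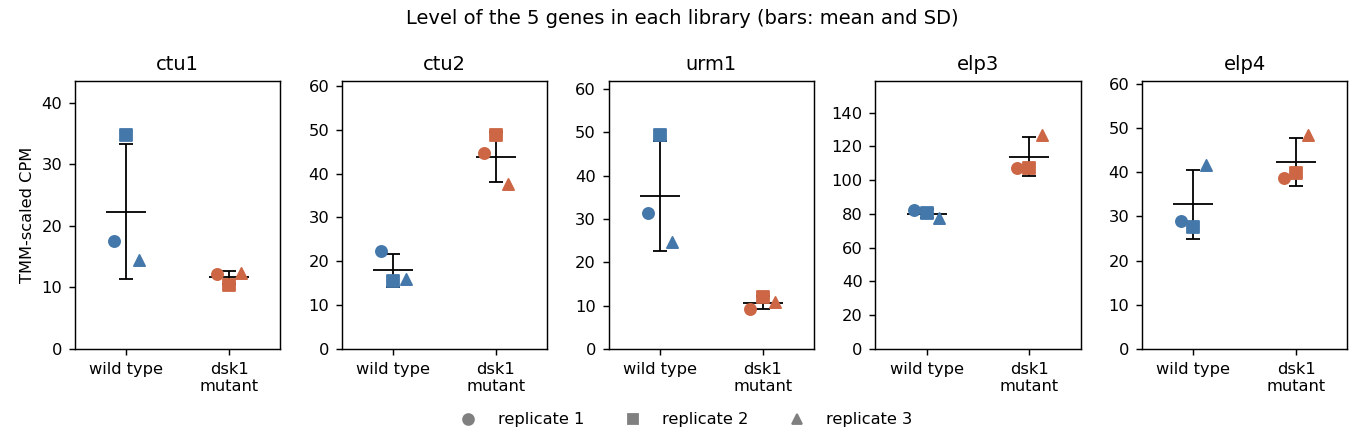
TMM-scaled CPM of ctu1, ctu2, urm1, elp3 and elp4 in each library, with points for libraries, shapes for replicates, and bars for the mean and SD of 3 libraries. The groups overlap for elp4 and for none of the other 4 genes, and wild-type replicate 2 is the highest wild-type library of ctu1 (34.8 CPM) and urm1 (49.5 CPM).

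Of the 5 genes, ctu2 and urm1 were among the genes called by edgeR over the whole table at an adjusted p under 0.05, where 2.03% of 4987 tested genes were called, 0.441% as higher and 1.58% as lower. The groups did not overlap in 4 of the 5, against 32.1% of tested genes, with 2 higher (15.5% of tested genes) and 2 lower (16.6%). At an unadjusted p under 0.05 there were 4 of the 5 against 22.7%, and DESeq2 called 3 of the 5, elp3 among them, against 11.1%, while limma on log2(FPKM + 1) called 2 of the 5, against 1.93% of tested genes. The authors' deposited table called the same 3 of the 5 as DESeq2, against 11% of its genes. Its adjusted p-values for the 5 genes equal those of DESeq2 here, so it is not a separate result. Since the genes were put forward from this comparison, nothing is read from these counts. The median log2 fold change was 0.37 over the 5 genes, with 3 above and 2 below 0, and 0.00 over all tested genes. The calls of ctu2 and urm1 were lost without wild-type replicate 1 or any 1 of the mutant libraries, and elp3 was called without wild-type replicate 2. In the authors' deposited table the log2 fold change was 1.33 for ctu2, -1.65 for urm1, -0.86 for ctu1, 0.54 for elp3 and 0.40 for elp4.

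The rest of the sulphur relay did not pass the test. Of nfs1, tum1 and uba42, the last added after its value was seen, 0 were called by edgeR, DESeq2 or limma, and 0 had an unadjusted edgeR p under 0.05. The desulphurase gene nfs1 had 214, 225 and 217 CPM in the wild type and 186, 199 and 223 CPM in the mutant (log2 fold change -0.11, SE 0.11, edgeR adjusted p = 0.576). The sulphurtransferase gene tum1 was at 0.06 (SE 0.13, edgeR adjusted p = 0.789) and uba42, for the enzyme that activates Urm1, at 0.19 (SE 0.16, edgeR adjusted p = 0.497). The groups overlapped for each of these 3 genes.

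Of the Elongator subunit genes elp2, elp5 and elp6, 0 were called by edgeR and limma and 2 by DESeq2. Before adjustment, 1 higher and 1 lower gene had an edgeR p under 0.05. The ring subunit gene elp5 had 154, 386 and 96.9 CPM in the wild type and 63.5, 62.0 and 66.2 CPM in the mutant. The mutant libraries lay close together below all wild-type libraries, which spread widely. Its log2 fold change was -1.73 (SE 0.46, edgeR adjusted p = 0.098), and it was called without wild-type replicate 2 (-0.97), without wild-type replicate 3 (-2.08) and by DESeq2 (-1.73). The WD-repeat subunit gene elp2 had 176, 192 and 166 CPM in the wild type and 230, 222 and 229 CPM in the mutant. Its log2 fold change was 0.35 (SE 0.11, edgeR adjusted p = 0.126), and it was called without wild-type replicate 2 (0.41) and by DESeq2 (0.35). The third ring subunit gene elp6 had 38.3, 23.4 and 41.6 CPM in the wild type and 46.6, 55.5 and 43.9 CPM in the mutant. Its groups did not overlap in CPM. In FPKM they did, with 54.39 in wild-type replicate 3 against 52.17 in mutant replicate 3. The log2 fold change of elp6 was 0.50 (SE 0.23, edgeR adjusted p = 0.239). The ring genes elp4 and elp5 had an FPKM ratio of 0.168, 0.0641 and 0.384 in the wild type and 0.543, 0.575 and 0.655 in the mutant.

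**Figure D3:**
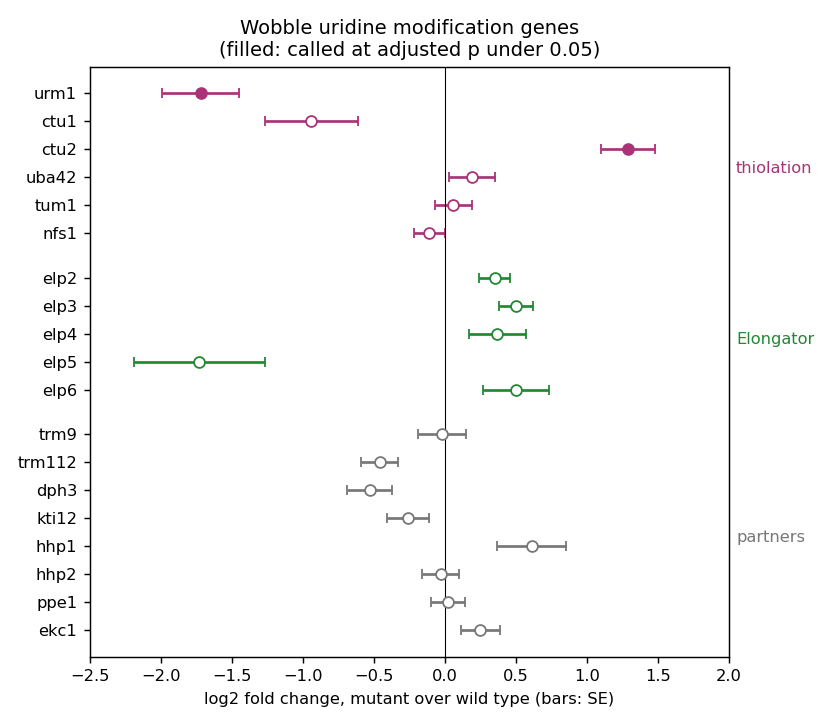
Log2 fold change, mutant over wild type, of genes of tRNA thiolation, Elongator and its partners. Bars are the SE derived from the edgeR test, and filled points are genes called at an adjusted p under 0.05. The filled points are urm1 at -1.72 and ctu2 at 1.29. Both genes were chosen with these values known, so nothing is read from their calls. The widest bar is that of elp5 (SE 0.46).

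Genes that act beside Elongator had no call in edgeR. These 8 genes cover the finishing methyltransferase, the small iron protein Dph3, the Elongator-associated Kti12, casein kinases and a phosphatase with its regulatory subunit. Their median log2 fold change was -0.03, and before adjustment 1 higher and 2 lower genes had an edgeR p under 0.05. There was 1 call by DESeq2 and 0 by limma. The methyltransferase partner gene trm112 had 30.3, 31.5 and 29.6 CPM in the wild type and 21.6, 23.0 and 21.9 CPM in the mutant, and its groups did not overlap. Its log2 fold change was -0.46 (SE 0.13, edgeR adjusted p = 0.104), and it was the gene that DESeq2 called. Its catalytic partner trm9 was at -0.02 (SE 0.17). The others with the smallest adjusted p were dph3 at -0.53 (SE 0.16, edgeR adjusted p = 0.126), hhp1, for a casein kinase, at 0.61 (SE 0.24, edgeR adjusted p = 0.190) and ekc1, for the phosphatase subunit, at 0.25 (SE 0.14, edgeR adjusted p = 0.325).

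Proteins whose synthesis is known in fission yeast to depend on these tRNA modifications, and kinases tied to Elongator, also had no call in edgeR over 7 genes, with 1 higher gene at p under 0.05 before adjustment, 1 DESeq2 call and 0 in limma. The gene of the stress transcription factor Atf1 had 203, 197 and 180 CPM in the wild type and 265, 250 and 248 CPM in the mutant. Its groups did not overlap, and its log2 fold change was 0.40 (SE 0.11, edgeR adjusted p = 0.101). It was called by DESeq2 (0.40) and without wild-type replicate 2 (0.41). The mitotic kinase gene cdr2 was at 0.03 (SE 0.13) and the Atf1 partner gene pcr1 at -0.15 (SE 0.23). Of the kinases, gsk3 was at 0.06, gad8 at -0.11, tor1 at 0.31 and tor2 at 0.39.

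Other tRNA-modifying enzymes had 0 calls among 50 tested genes in edgeR. Before adjustment 5 higher and 6 lower genes had an edgeR p under 0.05, and there were 5 calls by DESeq2 and 0 by limma. Over all tested genes the shares were 22.7% before adjustment, 11.1% by DESeq2 and 1.93% by limma, and the counts in this list and the lists above are to be read against these. Their median log2 fold change was -0.01, with 25 above and 25 below 0. The smallest adjusted p belonged to the dihydrouridine synthase gene dus4 (SPCC777.15) at -0.76 (SE 0.17, edgeR adjusted p = 0.0691), then the guanine methyltransferase gene trm8 at -1.01 (SE 0.27, edgeR adjusted p = 0.099), dus2 at -0.72 (SE 0.21, edgeR adjusted p = 0.115) and the pseudouridine synthase gene pus3 at -0.60 (SE 0.18, edgeR adjusted p = 0.119). Without wild-type replicate 2, dus4 (SPCC777.15) was called at -0.58 and trm8 at -0.67, and trm8 was also called without wild-type replicate 3. The isopentenyltransferase gene tit1, chosen after its values were seen, was given 98, 0 and 0 reads in wild-type replicates 1 to 3 and 567, 202 and 195 in the mutant ones (edgeR adjusted p = 0.193, and 0.0482 without wild-type replicate 1). All its exon bases are overlapped by wdr70 from the opposite strand, and the assignment of its reads is uncertain. Diphthamide synthesis, which shares dph3 with Elongator, had 0 of 6 genes called by edgeR. Before adjustment 2 higher and 2 lower genes had a p under 0.05, and there was 1 DESeq2 call and 0 in limma. Of these, dph5 was at 0.40, dph6 at 0.50 and dph2 at -0.82.

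The 5 genes lie on all 3 chromosomes and are not neighbours of each other. In ASM294v3, ctu1 and ctu2 are on chromosome II, urm1 and elp4 on chromosome III and elp3 on chromosome I. Coding sequences ran from 294 bases in urm1 to 1635 bases in elp3, with 1008 in ctu1, 1101 in ctu2 and 1086 in elp4. There were 3 introns in urm1, 1 in elp3 and 0 in the other 3 genes.

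Overlap with genes on the other strand limits what the counts of urm1 can show. Of its 2244 annotated exon bases, 1950 lie outside the coding sequence and 99.2% are covered by dbl5 on the other strand. The deposited counts and FPKM of urm1 together imply a gene length of 2313 bases, close to the annotated exons and far above the coding sequence. Whether strand was used in counting is not given, so reads of urm1 and dbl5 cannot be told apart with certainty. The counts assigned to dbl5 came to 66.4, 66.4 and 63.7 CPM in the wild type and 64.9, 62.9 and 54.1 CPM in the mutant, with overlapping groups (log2 fold change -0.11, SE 0.12, edgeR adjusted p = 0.587). The ratio of urm1 to dbl5 in FPKM was 0.463, 0.727 and 0.380 in the wild type and 0.138, 0.187 and 0.194 in the mutant.

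The other 4 genes overlap coding genes little or not at all. The mitochondrial ribosomal protein gene mrpl51 covers 15.7% of ctu2 from the other strand, and was at 17.4 ± 2.07 CPM in the wild type and 17.9 ± 2.19 CPM in the mutant (SD, n = 3, log2 fold change 0.05, edgeR adjusted p = 0.885). On its other side ctu2 starts 38 bases from the start of smd3, for a core splicing protein of the Sm family, which runs the opposite way. The whole gap, the only sequence that lies between the pair, is chrII:1702118-1702155 in ASM294v3, given on the plus strand.
ctu2-smd3 gap: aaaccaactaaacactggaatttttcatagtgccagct
The smd3 gene had 61.9, 42.7 and 61.8 CPM in the wild type and 39.6, 43.0 and 38.6 CPM in the mutant. Its groups overlapped through wild-type replicate 2. Its log2 fold change was -0.46 (SE 0.17, edgeR adjusted p = 0.177), and it was called lower without wild-type replicate 2 (-0.61), while ctu2 lay in the opposite direction. The counts and FPKM of smd3 imply a length of 1704 bases against 452 annotated exon bases, so the authors' model of it is longer than that of RefSeq, and whether it reaches into ctu2 was not tested. For ctu1, erv41 covers 9.7% from the other strand and was at -0.29 (SE 0.19, edgeR adjusted p = 0.384). No coding gene overlaps elp3 or elp4, and the annotation places 2 noncoding genes over elp3 and 1 over each of elp4 and ctu1.

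**Figure D4:**
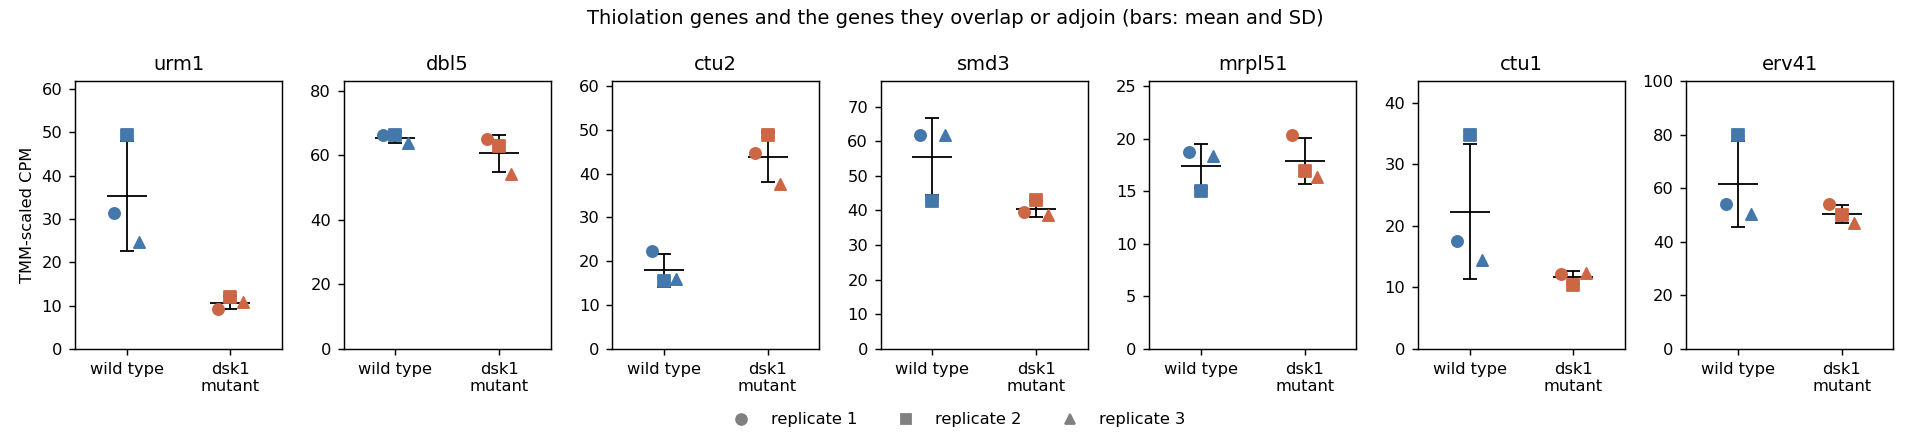
TMM-scaled CPM in each library of urm1 and dbl5, of ctu2 with smd3 and mrpl51, and of ctu1 and erv41, with bars for the mean and SD of 3 libraries. The groups are separate for urm1, ctu2 and ctu1 and overlap for dbl5, smd3, mrpl51 and erv41.

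The nearest coding gene without overlap on each side was also looked up for each of the 5 genes. None was called by edgeR, which called 2.03% of tested genes. DESeq2, which called 11.1% of the genes it tested, called snf21 (0.61) and gcn3 (SPCC11E10.07c, -0.54). Nothing is read from these calls. Beside urm1, ght8, for a hexose transporter family protein, was at -0.95 (SE 0.35, edgeR adjusted p = 0.176) and wtf4 at 0.28 (SE 0.19, edgeR adjusted p = 0.393). Beside elp3, the chromatin remodeller gene snf21 was at 0.60 (SE 0.19, edgeR adjusted p = 0.132) and cta5 at 0.19 (SE 0.12, edgeR adjusted p = 0.376). Beside elp4, ynd1 was at 0.24 and gcn3 (SPCC11E10.07c) at -0.54 (SE 0.16, edgeR adjusted p = 0.113). Beside ctu1, ckb2 was at 0.03 and the transketolase gene tkt1 (SPBC2G5.05) at -0.40 (SE 0.27, edgeR adjusted p = 0.406), and beside ctu2, mdm34 was at -0.17.

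Around the annotated starts, 4 motifs were searched on both strands, from 250 bases before to 50 after the start. TATAAA was found once in ctu1 and not in the other 4 genes, and 48.1% of 5104 such windows hold it. TGACGT, bound by Atf1 and its relatives (in 5.9% of windows), ACGCGT of the MBF cell cycle factor (3.3%) and CAGTCACA of ribosomal protein genes (2.7%) were not found in the windows of the 5 genes.

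The reading frames of the 5 genes differ in their use of the codons that the modified tRNAs read, a property that does not depend on the counts. AAA was 95.5% of the lysine codons of ctu1 (21 AAA and 1 AAG), above 98.4% of 5097 genes, whose median share was 64.3%. As a share of all codons it was less extreme, at 6.3% (88.4th percentile) against a median of 4.0%. The 20 codons of ctu1 that hold the most AAA, codons 208 to 227, contain 5 AAA in capitals and 0 AAG.
ctu1 coding bases: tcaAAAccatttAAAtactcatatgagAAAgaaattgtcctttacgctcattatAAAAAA
For the other wobble codons ctu1 ran the opposite way, with GAA for 47.6% of glutamate codons (6.9th percentile) and CAA for 40.0% of glutamine codons (2.3rd percentile), against medians of 69.0% and 72.7%. AAA made up 72.0% of lysine codons in ctu2, 72.7% in elp4 and 64.5% in elp3. In urm1 it was 42.9%, but on 3 AAA and 4 AAG codons only. Taken as AAA, GAA and CAA together, the share of all codons was 11.0% in ctu1, 10.9% in ctu2, 13.4% in urm1, 11.6% in elp3 and 9.7% in elp4, against a median of 11.2%. For comparison, AAA was 61.1% of the lysine codons of atf1 and 69.6% of those of cdr2.

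**Figure D5:**
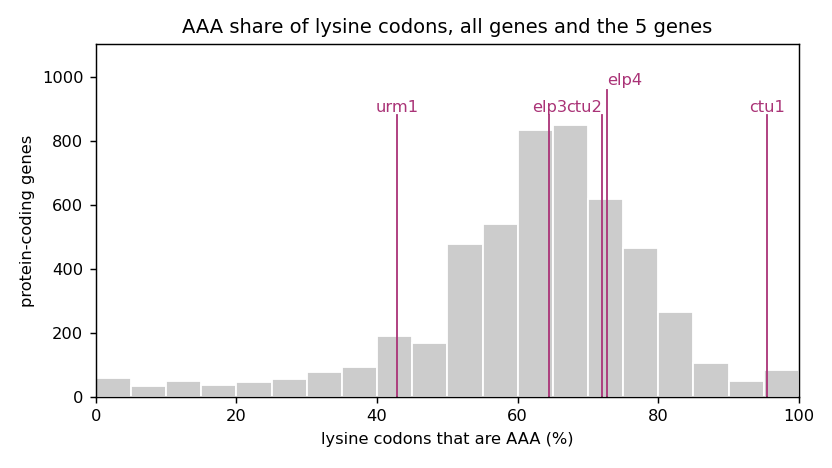
Share of lysine codons that are AAA (%) in 5097 protein-coding genes, as a histogram, with lines at ctu1, ctu2, urm1, elp3 and elp4. The line of ctu1 is in the last bin at 95.5%, and the line of urm1 is left of the main peak at 42.9%.

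Across the 6 libraries, whose points share their group, ctu1 and urm1 had a Pearson correlation of log2 CPM of 0.88, elp3 and ctu2 one of 0.87 and elp3 and elp4 one of 0.69. The correlation of ctu2 with urm1 was -0.91 and that of ctu2 with ctu1 -0.78. The tested genes most alike over the 6 libraries were SPBC21C3.10c, fep1 and pnu1 for ctu1 (0.999, 0.996 and 0.995), mss1, mip1 and ppk22 for ctu2 (0.993, 0.989 and 0.984) and tim11, ggg1 and pmd1 for urm1 (0.997, 0.996 and 0.995). For elp3 they were mug57, hsp9 and alg9 (0.993, 0.991 and 0.989), and for elp4 pcy1, usp107 and SPBC21B10.02 (0.998, 0.984 and 0.974). With 6 libraries in 2 groups, such values describe these libraries only.

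Markers of sporulating cells, the other cell type a culture could hold, were 5 tested genes. Their sum was 178 to 192 CPM in the wild type and 171 to 190 CPM in the mutant. Most of it came from the spore wall gene bgs2, at 116 ± 7.57 and 123 ± 11.1 CPM (SD, n = 3). The sum therefore says little about the other markers. By edgeR 1 marker was called lower and 0 higher, against 1.58% and 0.441% of all tested genes. The called gene was mei3, an inducer of meiosis, which fell by 1.64 on the log2 scale (SE 0.28, edgeR adjusted p = 0.0358), and rec8, a meiotic cohesin gene, was at -0.87 (SE 0.17, edgeR adjusted p = 0.0512). The call of mei3 was lost without wild-type replicate 1 or any 1 of the mutant libraries. It was also lost with a replicate block in the fit, with or without the length trend removed. Limma on log2(FPKM + 1) without a filter did not call mei3 either. The gene rec8 was called without wild-type replicate 2 (-0.88) and by DESeq2 (-0.87), which called 11.1% of the genes it tested. The other 3 markers did not pass the test, and 2 of the 5 were above 0. The gene of the meiotic transcription factor Mei4 had 32.4, 27.8 and 38.3 CPM in the wild type and 40.8, 43.3 and 39.9 CPM in the mutant. It was higher with no overlap, as were 15.5% of tested genes (log2 fold change 0.33, SE 0.15, edgeR adjusted p = 0.245). The gene bgs2, for a spore wall glucan synthase, was at 0.08 (SE 0.12, edgeR adjusted p = 0.682). No marker was at 0, and the lowest, spo6, had 0.607 to 1.28 CPM. The part of such cells in the values of the 5 genes was not tested.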

How the data were processed

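The genotype label gave each sample its group. Per the submitters' processing notes, fastp, Bowtie2, HISAT2, StringTie, RSEM and DESeq2 were used, with no version, role or order; no build or strand setting is named (not given in the sources used here). For every gene and library the deposited table has a count (whole numbers, rounding not described) and the authors' FPKM, and it holds their log2 fold change with its p-value, per the file headers.

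The test on counts was edgeR's quasi-likelihood test (edgeR 4.0.16, R 4.3.3) after TMM scaling and the default filter (4987 of 5160 entries kept), with genotype as the only term and Benjamini-Hochberg adjustment over all tested genes. Each SE of a log2 fold change was derived from this test, as the absolute log2 fold change divided by the square root of the F statistic. The procedure was tested on simulated data. DESeq2 1.42.0, limma 3.58.1 on log2(FPKM + 1) and log2(FPKM + 0.1), other scalings and filters, removal of a trend with gene length, a replicate block and leaving out each library were alternatives. The 5 genes had 160 to 2139 counts per library, and how far this limited their precision was not tested.

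The 5 genes, the gene lists and the rule for naming genes (all 5, called list members and up to 4 with the smallest adjusted p per list, neighbours, and the 3 most correlated genes each) were chosen with earlier results of these data known. Of the list names, 6 belonged to other fission yeast genes by the deposited descriptions or RefSeq and were left out. Gene IDs were matched to RefSeq ASM294v3 by systematic name. Replicate pairs differed by more than sampling noise (chi-square per degree of freedom 26.7 to 280), so none was counted once. A gene of the lists is not reported here.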

Additional observations from a re-analysis of the deposited data

How the results depend on the processing

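Directions of the 5 genes were the same under all 17 alternatives run. The number of genes called over the whole table was 101 as reported, 568 with DESeq2, 63 with limma on log2(FPKM + 1) without a filter, and 3 to 466 with one library left out. Replicate numbers did not pair the libraries (same-number correlations of deviations from the group means 0.165, -0.358 and -0.187), and not every library correlated best with its own number. The fit with a replicate block called 3 genes, and 4 with the length trend removed as well. The thiolation list had 2 calls in the fit as reported, ctu2 and urm1. Both are among the 5 chosen genes, so nothing is read from this count. The 3 genes of the list outside the 5 had 0 calls in that fit. The whole list had 0 calls with the block, 0 with the block and the length trend removed, and 0 with limma without a filter. With one library left out it had 0 to 2. DESeq2 called 11.1% of the genes it tested over the whole table. It made 3 calls among 5 Elongator subunits, with the chosen gene elp3 counted, and 2 among the 3 subunits outside the chosen genes. There was 1 call among 8 Elongator partners and 1 among 6 genes of diphthamide synthesis. Other tRNA modification genes (50 tested by edgeR) had 5 DESeq2 calls, and 7 wobble-dependent proteins and kinases had 1. With one library left out, the edgeR calls in these whole lists, in that order, were 0 to 3, 0 to 0, 0 to 0, 0 to 2 and 0 to 1. Leaving out libraries gave log2 fold changes of -1.18 to -0.46 for ctu1, 1.20 to 1.48 for ctu2, -1.92 to -1.40 for urm1, 0.42 to 0.55 for elp3 and 0.26 to 0.58 for elp4, with a median of 0.26 to 0.48. Fits with fewer libraries also have less information on the spread; the cause of the changes in calls was not tested.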
